A study of Homo sapiens with 2 samples.

Results

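Integrins are cell surface receptors that join the extracellular matrix to the actin or keratin cytoskeleton, and laminins are large matrix proteins of the basement membrane that several integrins bind. The genes described here are the integrin alpha and beta subunits and the laminin alpha, beta and gamma chains of PC3, a human prostate cancer cell line that grows as a monolayer. They were picked by a rule on gene symbols, which used no values, from a table of transcript levels; the rule itself was written with earlier results of these data known. Of 58174 genes in the table, 38 protein-coding genes that met the naming rule are described, of which 18 were integrin alpha, 8 integrin beta and 11 laminin genes. The remaining gene was ITGBL1, whose name met the rule but whose product resembles a beta subunit and is not known as part of an integrin receptor.

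The study held 2 messenger RNA sequencing libraries. The first came from PC3 cells transfected with a small interfering RNA (siRNA) against POH1, a proteasome subunit that strips ubiquitin from substrates and whose gene is PSMD14. The second came from PC3 cells that received a control siRNA. Both groups are the same established line, and each group was a single library. The sources used here do not give the siRNA sequences, the dose or the time after transfection. There was therefore no replicate error, no test between groups was possible, and what follows compares one library with the other.

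Values are TPM, a transcript level corrected for gene length, with every library brought to one total. Levels are therefore set side by side between genes, but how exact such ratios between genes are was not tested. The adjustment for GC content used below was applied to differences and not to levels. TPM keeps no read depth, and no counting interval can be given. A gene was counted as expressed at 1 TPM or more in either library. Differences are of log2(TPM + 1), POH1 siRNA less control siRNA, and 1.5-fold and 2-fold sizes are on that scale, which makes the difference of a low gene smaller than its TPM ratio. PSMD14 itself was at 35.1 TPM in the POH1 siRNA library and 50.9 TPM in the control library, so 69.0% of the control level remained. The epithelial markers EPCAM, KRT8, KRT18, KRT19, CDH1 and CLDN7 were all expressed and summed to 3121 TPM with POH1 siRNA and 2788 TPM with control siRNA. Of the prostate luminal markers, KLK2 and KLK3 were listed at 0 in both libraries, while HOXB13 was at 104 TPM with POH1 siRNA and 102 TPM with control siRNA. Of 6 endothelial markers 2 were expressed, PECAM1 at 3.88 TPM with POH1 siRNA and 4.90 TPM with control siRNA and CDH5 at 0.653 TPM with POH1 siRNA and 1.05 TPM with control siRNA.

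Each integrin is a heterodimer of an alpha and a beta subunit, and the pair sets which ligand is bound. Laminins are trimers of an alpha, a beta and a gamma chain, named by chain numbers. The alpha 3 and beta 3 chains belong to laminin-332, which anchors epithelia to the basement membrane. Laminins with alpha 5, the beta 1 or beta 2 chain and gamma 1 are broadly present in epithelial basement membranes. Integrin alpha 3 beta 1 and alpha 6 beta 4 are the main epithelial receptors for these laminins, and alpha 6 beta 4 is the integrin of hemidesmosomes.

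Of the 38 genes, 27 were expressed, and 25 of these reached 1 TPM in both libraries. The other 2, ITGB3 and LAMC3, passed only in the POH1 siRNA library, so they had to be higher there. The 11 genes that were not expressed stayed at or under 0.223 TPM, and 3 of them (ITGA8, ITGAD and ITGAX) were listed at 0 in both libraries. A listed 0 need not mean that no transcript was there, since RAB5C, a small GTPase gene that most cells use, was also at 0 in both. The rest of these 11 were ITGA4, ITGA9, ITGA11, ITGAL, ITGAM, LAMA1, LAMA2 and LAMB4. Every integrin beta gene was expressed, against 10 of 18 alpha genes and 8 of 11 laminin genes. Levels spanned a wide range, and 7 genes were above 100 TPM in both libraries: LAMB3, ITGA3, LAMA5, ITGB1, LAMB2, LAMA3 and ITGB4. These 7 are alpha and beta chains of epithelial laminins and subunits of laminin-binding integrins.

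**Figure D1:**
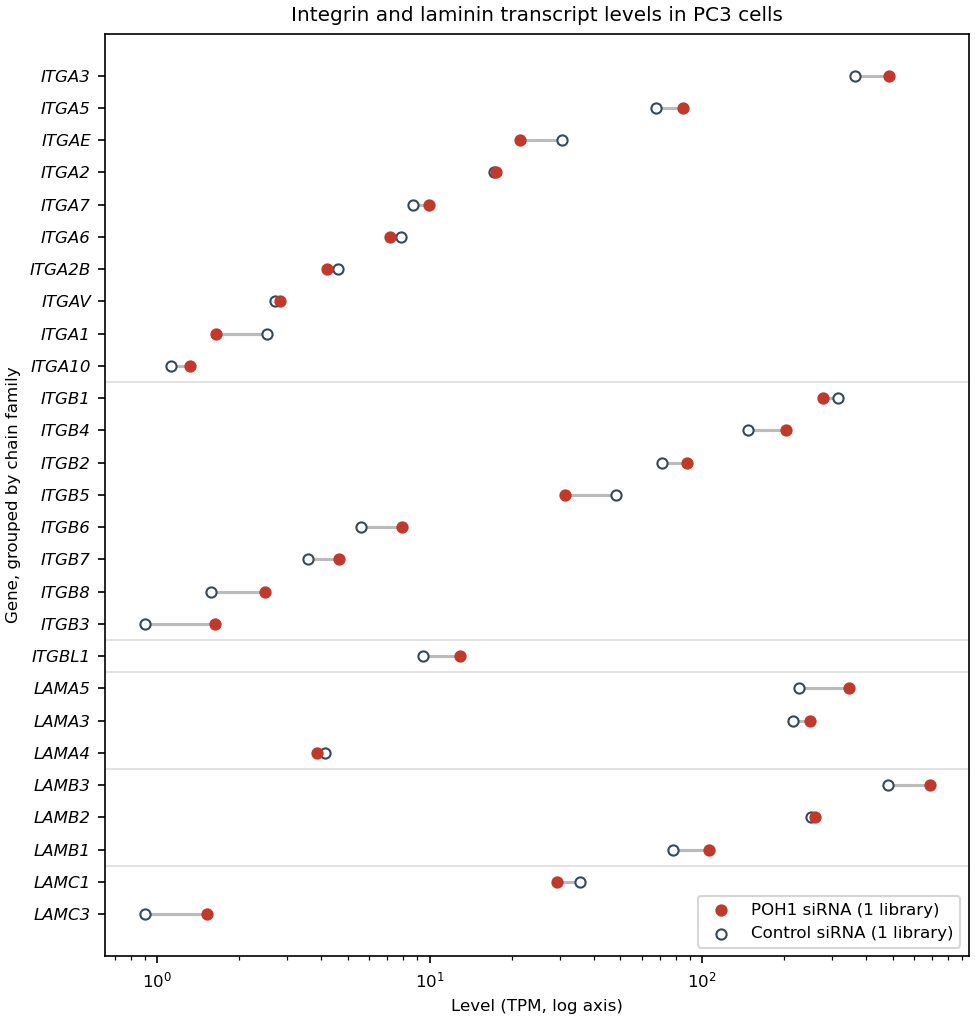
Level of each expressed gene in TPM (log axis) in the POH1 siRNA library (filled points) and the control siRNA library (open points), 1 library each, grouped by chain family. LAMB3 is the most abundant at 683 TPM with POH1 siRNA and 483 TPM with control siRNA, and for most genes the 2 points lie close together relative to the spread between genes.

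Most of these genes lay close to their control level. In bulk RNA, fewer cells with a transcript and less of it per cell cannot be told apart. In the POH1 siRNA library 1 of the 27 expressed genes, LAMA5, was at least 1.5-fold higher, against 10.9% of all 15745 expressed genes. Likewise 1, ITGB5, was at least 1.5-fold lower, against 9.48% of all expressed genes. None differed by 2-fold in either direction, a size that 2.49% of all expressed genes reached as higher and 3.22% as lower. The other 25 genes (92.6%) lay within 1.5-fold, as did 79.6% of all expressed genes. In all, 19 of the 27 genes (70.4%) had a value above 0 on this scale, beside 60.9% of all expressed genes. Their median was 0.20, beside 0.12 for all expressed genes, and 16 of the 27 lay above the median of all genes. By family, the median was 0.032 for the 10 alpha genes, 0.37 for the 8 beta genes and 0.31 for the 8 laminin genes. ITGB3 and LAMC3, which had to be higher, are among the 19 genes above 0. ITGB3 is also in the beta median and LAMC3 in the laminin median. TPM was also rescaled to a median ratio of 1, which lowers the median of all genes by 0.12 on the log2 scale. No gene of the set was then 1.5-fold higher and 2 were lower (ITGB5 and ITGAE). Of all expressed genes, 7.02% were then higher and 12.9% lower. The alpha median was -0.085 with this scaling. In all, 11 of the 27 genes share exon bases with another expressed gene, mostly on the opposite strand. This is named below where the overlap is large or bears on a gene beyond 1.5-fold before GC adjustment. Overlaps with genes under 1 TPM are not in that count. ITGBL1 shares 4354 of 6174 exon bases with FGF14 on the opposite strand, and ITGB3 shares 2266 of 4394 with ENSG00000259753 on the same strand.

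**Figure D2:**
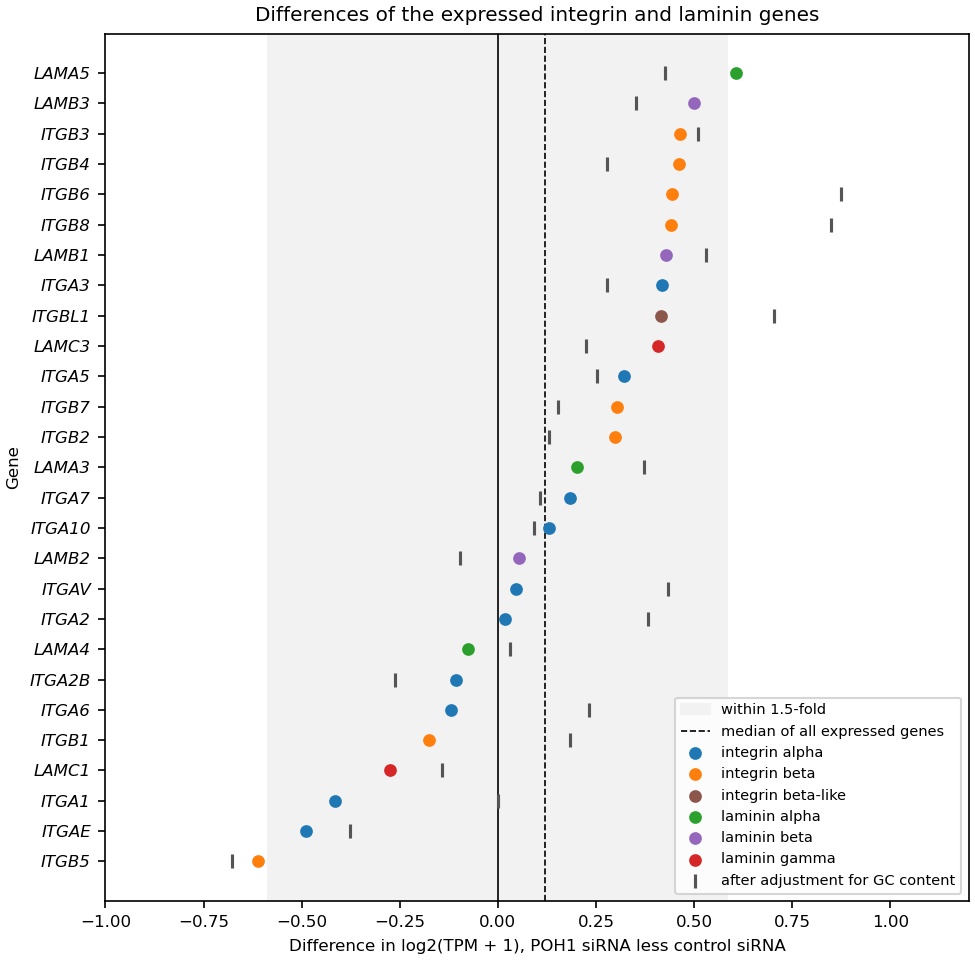
Difference in log2(TPM + 1) between the POH1 siRNA library and the control siRNA library for each of the 27 expressed genes (points, coloured by chain family), with the value after adjustment for GC content (ticks). The shaded band marks differences within 1.5-fold and the dashed line the median of all expressed genes at 0.12; LAMA5 lies above the band and ITGB5 below it.

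Among the laminin alpha chains, LAMA5 (ENSG00000130702) was at 347 TPM in the POH1 siRNA library and 227 TPM in the control library. This was a 1.53-fold higher value and a difference of 0.61. Of all expressed genes, 89.99% had a lower difference. The size only just passed 1.5-fold. The difference of LAMA5 lay inside that limit, at 0.47, 0.48 and 0.54, with the 3 other scalings of TPM, and at 0.43 after adjustment for GC content. LAMA5 shares 244 of its 14291 exon bases with ADRM1 on the opposite strand, a proteasome ubiquitin receptor gene at 551 TPM with POH1 siRNA and 408 TPM with control siRNA, and whether counting used strand is not stated. LAMA3, the alpha chain of laminin-332, was at 249 TPM with POH1 siRNA and 216 TPM with control siRNA, a difference of 0.20. LAMA4, best known from blood vessel basement membranes, was at 3.86 TPM with POH1 siRNA and 4.12 TPM with control siRNA. LAMA5 thus made up 57.8% of the summed laminin alpha TPM in the POH1 siRNA library and 50.7% in the control library, and LAMA3 made up 41.5% with POH1 siRNA and 48.3% with control siRNA.

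LAMB3, the beta chain of laminin-332 and the most abundant gene of the whole set, was at 683 TPM in the POH1 siRNA library and 483 TPM in the control library, a 1.42-fold higher value and a difference of 0.50. LAMB1 was at 106 TPM with POH1 siRNA and 78.4 TPM with control siRNA, a difference of 0.43. LAMB2 was at 260.2 TPM with POH1 siRNA and 251 TPM with control siRNA, nearly the same in both. Accordingly LAMB3 took 65.1% of the laminin beta TPM in the POH1 siRNA library and 59.5% in the control library, and LAMB2 took 24.8% with POH1 siRNA and 30.9% with control siRNA. LAMC1, the gamma chain of many laminins, was at 29.3 TPM with POH1 siRNA and 35.7 TPM with control siRNA, a difference of -0.28. LAMC3, a rarer gamma chain, was at 1.52 TPM with POH1 siRNA and 0.900 TPM with control siRNA, 1.69-fold higher as a ratio of TPM but within 1.5-fold on the scale used for counts.

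LAMA3, LAMB1 and LAMB3 were above the control, also under each other scaling and after GC adjustment. Laminin alpha genes summed to 599.8 TPM in the POH1 siRNA library and 448 TPM in the control library, a 1.34-fold higher sum. Laminin beta genes summed to 1049 TPM with POH1 siRNA and 812 TPM with control siRNA, 1.29-fold higher. LAMB3 exceeded LAMA3 2.74-fold in the POH1 siRNA library and 2.23-fold in the control library. LAMA5 exceeded LAMC1, its gamma partner, 11.8-fold with POH1 siRNA and 6.36-fold with control siRNA. After GC adjustment the differences were 0.35 for LAMB3, 0.37 for LAMA3, 0.43 for LAMA5 and -0.14 for LAMC1.

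**Figure D3:**
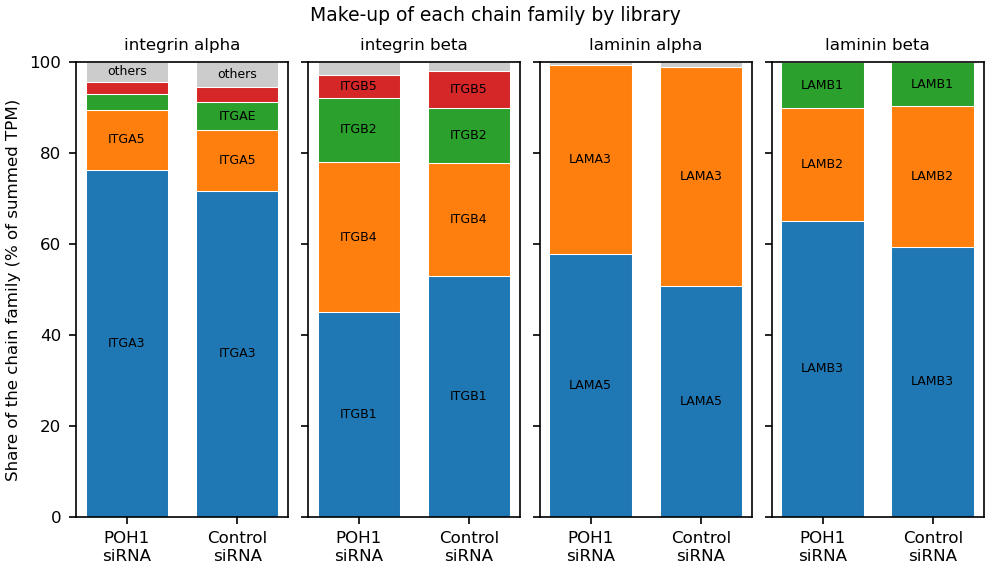
Share of each gene in the summed TPM of its chain family (vertical axis, %; integrin alpha, integrin beta, laminin alpha and laminin beta), with the POH1 siRNA library at the left and the control siRNA library at the right of each pair of bars; genes under 2% in both libraries are joined as others in grey. ITGA3 holds 76.3% with POH1 siRNA and 71.8% with control siRNA of the integrin alpha sum, and ITGB1 holds 45.1% with POH1 siRNA and 53.0% with control siRNA of the integrin beta sum.

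Promoters of the laminin-332 genes LAMA3 and LAMB3 are shown beside those of LAMA5 and ITGB5, the only genes beyond 1.5-fold. LAMA3 and LAMB3 were above the control, but so were 19 of the 27 expressed genes in all, so direction does not set them apart. Each sequence is the 250 bases before an annotated transcript start, from RefSeq on GRCh38.p14, written 5′ to 3′ on the strand of the gene. Capitals mark TGANTCA, which covers the element that AP-1 factors read, and GGGCGG or its reverse complement CCGCCC, the GC box read by SP1 family factors. Both strands were searched, TGANTCA is its own reverse complement, and no 2 of these different motifs can share bases. LAMB3 had 3 windows, of which the only one with TGANTCA is shown, and ITGB5 had 3, of which the one with most GC boxes is shown.
LAMA3, GRCh38.p14 chr18:23872770-23873019, plus strand: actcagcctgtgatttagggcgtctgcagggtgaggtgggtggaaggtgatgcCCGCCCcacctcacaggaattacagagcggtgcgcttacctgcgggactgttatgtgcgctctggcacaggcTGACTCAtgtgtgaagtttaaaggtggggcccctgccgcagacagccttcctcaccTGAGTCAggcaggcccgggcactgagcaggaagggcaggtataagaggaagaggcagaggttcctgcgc
LAMB3, GRCh38.p14 chr1:209651375-209651624, minus strand: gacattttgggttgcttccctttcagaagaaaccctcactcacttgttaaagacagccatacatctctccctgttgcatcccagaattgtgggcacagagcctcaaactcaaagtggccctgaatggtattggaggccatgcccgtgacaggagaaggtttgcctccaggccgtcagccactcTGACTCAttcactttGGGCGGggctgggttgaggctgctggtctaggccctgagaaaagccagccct
LAMA5, GRCh38.p14 chr20:62367313-62367562, minus strand: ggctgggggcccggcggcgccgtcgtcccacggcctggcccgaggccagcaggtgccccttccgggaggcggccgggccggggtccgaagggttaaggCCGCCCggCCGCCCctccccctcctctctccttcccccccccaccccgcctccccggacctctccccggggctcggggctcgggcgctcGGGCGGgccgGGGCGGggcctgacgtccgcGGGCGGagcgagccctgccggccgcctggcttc
ITGB5, GRCh38.p14 chr3:124887366-124887615, minus strand: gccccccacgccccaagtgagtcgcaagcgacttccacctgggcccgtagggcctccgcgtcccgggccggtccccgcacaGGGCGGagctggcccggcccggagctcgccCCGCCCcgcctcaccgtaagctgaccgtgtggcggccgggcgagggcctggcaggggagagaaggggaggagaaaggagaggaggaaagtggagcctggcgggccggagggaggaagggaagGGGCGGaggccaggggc
LAMA3 held TGANTCA at 125 and 69 bases before the start, and LAMB3 held it at 67 bases. LAMA5 held 5 GC boxes in a window of 82.8% GC, and the ITGB5 window held 3 at 75.2% GC. A window was found for 21 of the 27 expressed genes, and there was none for ITGA3, ITGA7, ITGB2, ITGB3, ITGB4 and LAMC3. TGANTCA was present in 2 of the 28 windows of these 21 genes (7.14%) and in 6.57% of all 35116 windows of the reference. LAMA3 and LAMB3 were the only ones of the 21 genes with it. A GC box was present in 16 of the 28 windows (57.1%) and in 42.6% of all windows. These matches describe letters in a window and were not tested against the differences.

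Among the integrins that bind laminin, ITGA3 (ENSG00000005884) was at 487 TPM in the POH1 siRNA library and 364 TPM in the control library, a 1.34-fold higher value and a difference of 0.42. ITGA3 alone made up 76.3% with POH1 siRNA and 71.8% with control siRNA of the TPM of all alpha genes. ITGA6, the alpha partner of beta 4, was at 7.17 TPM with POH1 siRNA and 7.87 TPM with control siRNA, and ITGA7, a laminin receptor best known from muscle, was at 9.98 TPM with POH1 siRNA and 8.67 TPM with control siRNA. Both lay close to their control level. ITGB4 was at 203 TPM with POH1 siRNA and 147 TPM with control siRNA, a 1.38-fold higher value and a difference of 0.46. ITGB4 therefore exceeded ITGA6 28.4-fold in the POH1 siRNA library and 18.7-fold in the control library, although beta 4 is known to pair with alpha 6 alone. After GC adjustment the differences were close, at 0.28 for ITGB4 and 0.23 for ITGA6. Transcript levels do not give protein levels, which were not measured here.

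ITGB1 (ENSG00000150093), which pairs with most of the expressed alpha subunits, was at 278 TPM in the POH1 siRNA library and 314 TPM in the control library, a difference of -0.17. The beta 1 gene thus lay below its control level and ITGB4 above it. After GC adjustment ITGB1 was at 0.18 and ITGB4 at 0.28, beside a median of 0.15 for all expressed genes. The share of ITGB1 in all beta TPM was 45.1% with POH1 siRNA and 53.0% with control siRNA against 32.9% with POH1 siRNA and 24.9% with control siRNA for ITGB4. ITGB1 lay below ITGA3 in both libraries, and the ratio of ITGB1 to ITGA3 was 0.572 in the POH1 siRNA library and 0.863 in the control library. After GC adjustment the difference of ITGA3 was 0.28. The pseudogene ITGB1P1, a copy whose reads can be hard to tell from those of ITGB1, was at 7.11 TPM with POH1 siRNA and 17.5 TPM with control siRNA, and the sum with ITGB1 differed by -0.22. In all, alpha genes summed to 639 TPM with POH1 siRNA and 507 TPM with control siRNA and beta genes to 618 TPM with POH1 siRNA and 593 TPM with control siRNA.

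Collagen receptors were at low to moderate levels. ITGA2, whose product binds collagen with beta 1, was at 17.5 TPM in the POH1 siRNA library and 17.2 TPM in the control library. Its difference was 0.017, and 0.38 after GC adjustment. ITGA1 was at 1.64 TPM with POH1 siRNA and 2.52 TPM with control siRNA, a difference of -0.41. After adjustment for GC content the difference of ITGA1 was -0.00017, beside a median of 0.15 for all expressed genes. ITGA10 was at 1.32 TPM with POH1 siRNA and 1.12 TPM with control siRNA. ITGA1 shares 475 of 18566 exon bases with PELO on the same strand, which was at 41.4 TPM with POH1 siRNA and 33.2 TPM with control siRNA, so the value of ITGA1 is uncertain. ITGA5, the fibronectin receptor subunit and the second most abundant alpha gene, was at 85.2 TPM with POH1 siRNA and 67.9 TPM with control siRNA, a 1.25-fold higher value.

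The receptors for matrix proteins with an RGD sequence, which include the activators of latent TGF-beta, lay on both sides of their control levels. ITGB5 (ENSG00000082781), whose product binds vitronectin together with alpha V, was at 31.3 TPM in the POH1 siRNA library and 48.3 TPM in the control library. That was a 1.54-fold lower value and a difference of -0.61, and 8.87% of all expressed genes had a lower difference. It remained beyond 1.5-fold under each scaling of TPM and after GC adjustment (-0.68), but with a pseudocount of 5 it was -0.56 and inside the limit. No exon of ITGB5 overlapped another expressed gene. ITGB6, an epithelial beta subunit that activates latent TGF-beta, was at 7.95 TPM with POH1 siRNA and 5.58 TPM with control siRNA, a 1.42-fold higher value. ITGB8, which also activates latent TGF-beta, was at 2.49 TPM with POH1 siRNA and 1.57 TPM with control siRNA, and ITGB3 at 1.63 TPM with POH1 siRNA and 0.906 TPM with control siRNA. So ITGB6 and ITGB8 lay above the control and ITGB5 below it. ITGB3 passed the filter only in the POH1 siRNA library, so it had to be higher there. ITGAV, the alpha partner of all of these beta subunits, was at 2.82 TPM with POH1 siRNA and 2.70 TPM with control siRNA. ITGB5 exceeded it 11.1-fold in the POH1 siRNA library and 17.9-fold in the control library. After GC adjustment the difference of ITGAV was 0.43. ITGA2B, the platelet partner of beta 3, was at 4.21 TPM with POH1 siRNA and 4.60 TPM with control siRNA. ITGBL1, the gene with a beta-like product, was at 12.9 TPM with POH1 siRNA and 9.42 TPM with control siRNA, a difference of 0.42.

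Genes of integrins best known from leukocytes were present in part. ITGB2, the beta subunit of the leukocyte integrins, was at 88.1 TPM in the POH1 siRNA library and 71.4 TPM in the control library, below ITGB1 and ITGB4 and above the other beta genes. Its alpha partners were listed at or near 0: ITGAM was at 0.0910 TPM with POH1 siRNA and 0.0233 TPM with control siRNA, ITGAL was at 0 TPM with POH1 siRNA and 0.0211 TPM with control siRNA, and ITGAX and ITGAD were at 0 in both, as was RAB5C. The leukocyte marker CD3E was listed at 0 in both libraries and PTPRC was at 0.0568 TPM with POH1 siRNA and 0 TPM with control siRNA, but CD68 (68.5 TPM with POH1 siRNA and 44.2 TPM with control siRNA), LCP1 (103 TPM with POH1 siRNA and 179 TPM with control siRNA), CORO1A (12.4 TPM with POH1 siRNA and 14.5 TPM with control siRNA) and CD14 (2.11 TPM with POH1 siRNA and 1.59 TPM with control siRNA) were expressed, so 4 of 6 leukocyte markers were. The 6 summed to 186 TPM with POH1 siRNA and 239 TPM with control siRNA, and their part in the level of ITGB2 was not tested. ITGB2 shares 303 of 6797 exon bases with ITGB2-AS1 on the opposite strand, at 2.51 TPM with POH1 siRNA and 1.39 TPM with control siRNA. ITGAE, whose product binds E-cadherin with beta 7, was at 21.5 TPM with POH1 siRNA and 30.6 TPM with control siRNA, a 1.42-fold lower value and a difference of -0.49. ITGB7 was at 4.65 TPM with POH1 siRNA and 3.58 TPM with control siRNA, above the control where its partner was below. Both overlap genes on the opposite strand, ITGAE with HASPIN (6.61 TPM with POH1 siRNA and 6.05 TPM with control siRNA) and ITGB7 over 1886 of 4481 exon bases with ZNF740 (14.04 TPM with POH1 siRNA and 13.97 TPM with control siRNA), so these values are uncertain where strand was not used.

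The GC content of transcripts moved with the differences in these libraries. The Spearman correlation between difference and GC content was 0.46 over the 10114 genes that averaged at least 5 TPM, and 0.36 over the 27 expressed integrin and laminin genes. The first is across genes, which are not independent replicates, and the points of both share the same pair of libraries. Of the 14 genes with at least 50% GC, 12 had a difference above 0, beside 77.4% of all expressed genes of that GC content. The 12 include ITGB3 and LAMC3, which had to be higher. Of the 13 genes under 50% GC, 7 had a difference above 0, beside 41.8% of all such genes. In bins of 5 percentage points, 17 of the 27 genes lay above the median of all expressed genes in their bin. The running median over GC content was then subtracted and the overall median added back, which left the median of all genes at 0.15. ITGB6 (0.87), ITGB8 (0.85) and ITGBL1 (0.70), all with less than 45% GC, were then at least 1.5-fold higher and LAMA5 was not. ITGB5 (-0.68) was still at least 1.5-fold lower. Of all expressed genes, 13.3% were then higher and 5.74% lower. The median of the set was 0.23. ITGB1, with 41.8% GC, was then at 0.18 in place of -0.17. The part of GC content in these differences was not tested further.

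**Figure D4:**
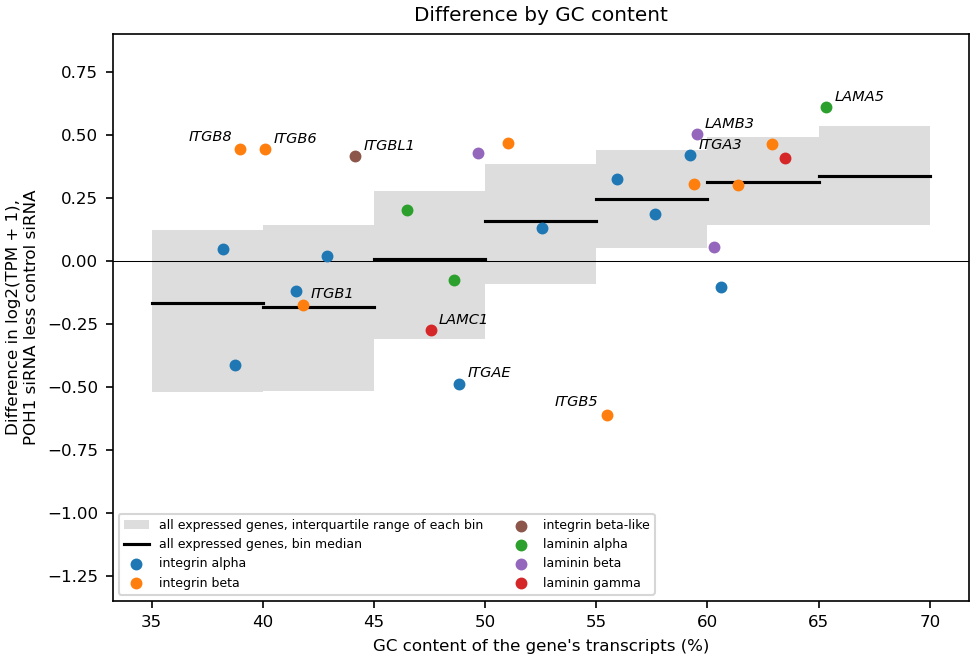
Difference in log2(TPM + 1), POH1 siRNA less control siRNA, against the GC content of the gene's transcripts (%), for the 27 expressed integrin and laminin genes (points) over all expressed genes in bins of 5 percentage points (line, median; grey, interquartile range). The median of all genes is -0.18 in the bin from 40% and 0.33 in the bin from 65%, and ITGB3, ITGB6, ITGB8, ITGBL1, LAMA5, LAMB1 and LAMB3 lie above the interquartile range of their bins while ITGA2B, ITGAE, ITGB5 and LAMB2 lie below it.

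Other matrix and receptor genes were taken from lists drawn up for adhesion. Other basement membrane genes had a median of 0.49 over 15 expressed genes of 19, of which 4 passed 1.5-fold as higher and none as lower. Over all expressed genes the median was 0.12, and 10.9% passed as higher and 9.48% as lower. After GC adjustment the list median was 0.40, beside 0.15 for all expressed genes. AGRN, a heparan sulfate proteoglycan that binds laminin, was at 334 TPM in the POH1 siRNA library and 191 TPM in the control library. COL4A5, a type IV collagen chain, was at 18.2 TPM with POH1 siRNA and 10.7 TPM with control siRNA, NTN4, a laminin-related netrin, at 31.0 TPM with POH1 siRNA and 19.3 TPM with control siRNA, and HSPG2, which encodes perlecan, at 40.9 TPM with POH1 siRNA and 26.7 TPM with control siRNA. The lowest differences in this list were those of FRAS1 (2.89 TPM with POH1 siRNA and 3.37 TPM with control siRNA), SPARC (2.04 TPM with POH1 siRNA and 1.97 TPM with control siRNA) and NID2 (6.01 TPM with POH1 siRNA and 5.82 TPM with control siRNA). Integrin ligands other than laminins had a median of 0.45 over 19 expressed genes of 26, or 0.34 after GC adjustment. Of these genes, 3 passed 1.5-fold as higher while none did as lower, beside 10.9% and 9.48% of all expressed genes. The 3 were NPNT, which encodes nephronectin (3.64 TPM with POH1 siRNA and 1.69 TPM with control siRNA), CCN2 (21.5 TPM with POH1 siRNA and 12.8 TPM with control siRNA) and COL1A1 (47.8 TPM with POH1 siRNA and 30.9 TPM with control siRNA). COL1A1 was also the only one of 7 fibroblast markers that was expressed, and COL1A2 was at 0.0347 TPM with POH1 siRNA and 0.109 TPM with control siRNA. FN1, which encodes fibronectin, was at 296 TPM with POH1 siRNA and 276 TPM with control siRNA, ADAM9 at 37.0 TPM with POH1 siRNA and 39.1 TPM with control siRNA and LTBP1 at 23.4 TPM with POH1 siRNA and 20.3 TPM with control siRNA.

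The 8 laminin receptor genes that are not integrins had a median of 0.50, or 0.32 after GC adjustment. Of them, 1 passed 1.5-fold as higher, beside 10.9% of all expressed genes. That gene was DAG1, which encodes dystroglycan, at 14.0 TPM in the POH1 siRNA library and 4.20 TPM in the control library, a 3.33-fold higher value. GPC1 was at 43.9 TPM with POH1 siRNA and 29.6 TPM with control siRNA and the syndecan gene SDC1 at 132 TPM with POH1 siRNA and 91.3 TPM with control siRNA, both within 1.5-fold. RPSA, which encodes a ribosomal protein also described as a laminin receptor, was at 2183 TPM with POH1 siRNA and 2815 TPM with control siRNA, SDC2 at 1.27 TPM with POH1 siRNA and 1.58 TPM with control siRNA and SDC4 at 164 TPM with POH1 siRNA and 163 TPM with control siRNA. Hemidesmosome genes other than ITGA6 and ITGB4 had a median of 0.20 over 5 expressed genes of 7, or 0.43 after GC adjustment. PLEC, the linker of beta 4 to keratin filaments, was at 330 TPM with POH1 siRNA and 214 TPM with control siRNA and was the only one at least 1.5-fold higher, a size that 10.9% of all expressed genes reached. CD151, a tetraspanin that binds laminin-binding integrins, was at 549 TPM with POH1 siRNA and 709 TPM with control siRNA, COL17A1 at 2.16 TPM with POH1 siRNA and 1.75 TPM with control siRNA, DST at 21.3 TPM with POH1 siRNA and 14.7 TPM with control siRNA and ERBIN at 2.05 TPM with POH1 siRNA and 1.84 TPM with control siRNA.

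Genes of integrin activators and adaptors, which hold actin linkers, RAP1 GTPases and a few integrin inhibitors, had a median of 0.21 over 28 expressed genes of 31. Of these, 2 passed 1.5-fold as higher and 1 as lower, beside 10.9% and 9.48% of all expressed genes. After GC adjustment the list median was 0.11, beside 0.15 for all expressed genes. VCL, which encodes vinculin, was at 235 TPM in the POH1 siRNA library and 94.3 TPM in the control library, a 2.49-fold higher value and a difference of 1.31. FLNC, a filamin gene, was at 73.1 TPM with POH1 siRNA and 45.5 TPM with control siRNA and TNS3, a tensin gene, at 64.2 TPM with POH1 siRNA and 45.3 TPM with control siRNA. RAP1A, a small GTPase that promotes integrin activation, was at 2.31 TPM with POH1 siRNA and 5.67 TPM with control siRNA, a difference of -1.01 that was -0.59 after GC adjustment. FERMT2, the kindlin 2 gene, was at 16.8 TPM with POH1 siRNA and 25.1 TPM with control siRNA, within 1.5-fold, and RAP1B at 20.2 TPM with POH1 siRNA and 25.3 TPM with control siRNA. Of the genes of these lists beyond 1.5-fold, AGRN (0.62), COL4A5 (0.84), NTN4 (0.77), NPNT (0.89), CCN2 (0.74), DAG1 (1.45), VCL (1.42) and RAP1A remained so after GC adjustment. HSPG2 (0.40), COL1A1 (0.45), PLEC (0.43) and FLNC (0.50) did not. Conversely, DST (0.85), FBN1 (0.66) and COL4A1 (0.61) were at least 1.5-fold higher only after GC adjustment. At that setting 13.3% of all expressed genes were higher and 5.74% lower.

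**Figure D5:**
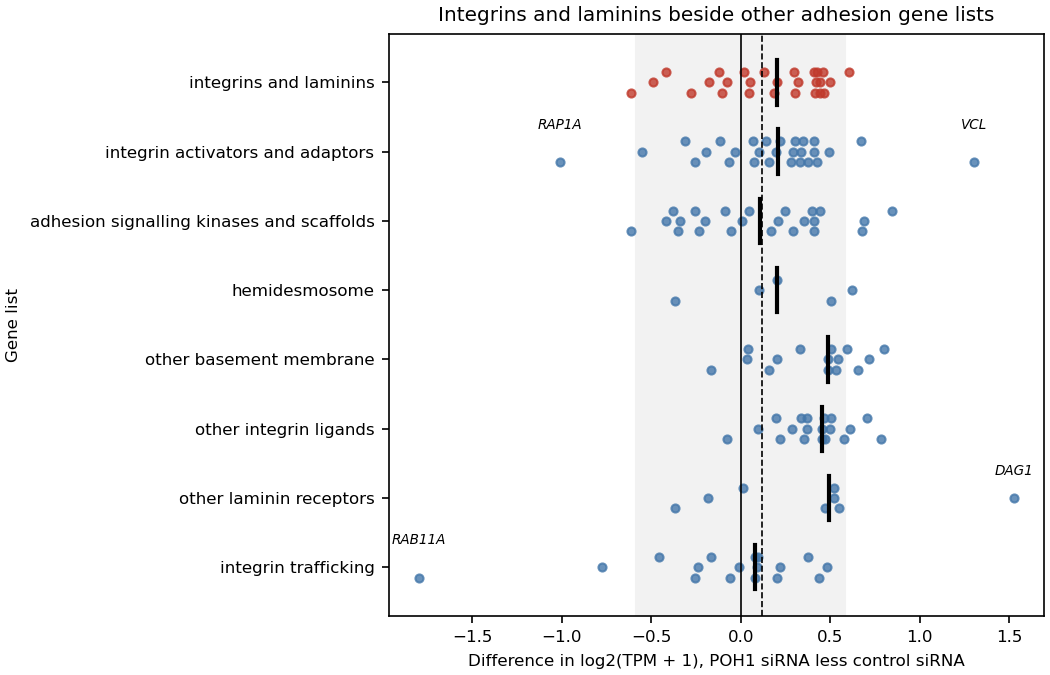
Difference in log2(TPM + 1), POH1 siRNA less control siRNA, for each expressed gene of the integrin and laminin set (top row) and of 7 other adhesion gene lists, with the list median as a bar. The band marks differences within 1.5-fold and the dashed line the median of all expressed genes; VCL, DAG1, RAP1A and RAB11A lie beyond 2-fold and no integrin or laminin gene does.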

How the data were processed

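The data are RNA sequencing values of 2 PC3 libraries, 1 per group. Trizol RNA went into an mRNA library kit for Illumina, per the labels' protocols. Per the submitters' processing notes, CASAVA, HISAT2 and the hg19 build were used, without roles; the sources used here give no annotation, quantification tool, strand use or depth. The authors deposited TPM per Ensembl gene, summing to 999968 and 999955 in the POH1 siRNA and control siRNA libraries.

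Symbols were matched by identifier (57392 of 58174). Gene types, GC content and exon overlaps came from GENCODE release 29, which is on GRCh38, so only promoter coordinates are printed. Calculations used pandas 2.3.3 and NumPy 2.4.6 and were checked on simulated data. With 1 library per group no test was run. Alternatives were pseudocounts of 0.1 and 5, other filters, 3 scalings and GC adjustment. For GC adjustment, a running median of 501 genes was subtracted and the overall median added back. Both came from genes with a mean of at least 5 TPM. The members and lists were chosen with earlier results of these data known. Of 39 genes that met the naming rule 1 is not reported here, nor are 3 of the cell type markers, and no count, sum or median of the set or of the marker lists includes them. All other expressed members are named. Of each list, the 3 highest and 3 lowest genes are, with the cell type markers. HSPG2, COL4A1, FBN1, YES1 and ARF6 were added after their values were seen.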

Additional observations from a re-analysis of the deposited data

How the results depend on the processing

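Each value rests on 1 library per group with unknown depth, and neither biological nor counting error is known. No paired analysis was possible because each group holds a single library.

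The count of genes at least 1.5-fold higher was 1 (LAMA5). It was 4 with a pseudocount of 0.1 (LAMA5, ITGB3, ITGB8 and LAMC3) and 3 after GC adjustment (ITGB6, ITGB8 and ITGBL1). Of the 4, ITGB3 and LAMC3 had to be higher, and ITGB3, ITGB8 and LAMC3 were at most at 2.49 TPM. The count was 0 with scaling to a median ratio of 1, with trimmed mean scaling and without mitochondrial and the 50 most abundant genes. It was also 0 without the 11 expressed genes that overlap another gene. That setting, added after seeing the data, leaves out LAMA5. The count at least 1.5-fold lower was 1 (ITGB5). It was 2 with a pseudocount of 0.1 and with median and trimmed mean scaling, and 0 with a pseudocount of 5. The shares of all genes moved too. With a pseudocount of 0.1, 15.3% were higher and 12.9% lower. With a pseudocount of 5, 4.04% were higher and 4.24% lower. After GC adjustment 13.3% were higher and 5.74% lower. With median scaling 7.02% were higher and 12.9% lower, with trimmed mean scaling 7.31% and 12.5%, and without the abundant genes 9.91% and 12.1%. No gene of the set reached 2-fold under any of these settings.

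The median difference of the 27 genes was 0.20. It was 0.092 without a filter, 0.063 with median scaling and 0.076 with trimmed mean scaling, which lower the median of all genes by similar amounts (to 0.00 and 0.01). The alpha median, 0.032 as reported, was -0.085 with median scaling, -0.074 with trimmed mean scaling and -0.028 without the abundant genes, and was 0.17 after GC adjustment. The beta median of 0.37 was 0.18 with a pseudocount of 5, 0.25 and 0.26 with these scalings, and 0.23 after GC adjustment. The laminin median of 0.31 was 0.17 with a pseudocount of 5, 0.054 without a filter, 0.18 and 0.19 with the scalings, and 0.054 without overlapping genes. The filters at a mean of 1 and 5 TPM left every 1.5-fold and 2-fold count as it was. With the 5 TPM filter 18 genes of the set remained, of which 13 were above 0, with a median of 0.25. The causes were not tested.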

Other observations

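Genes of integrin trafficking and of adhesion signalling were also described. Of 19 trafficking genes, 17 were expressed, with a median difference of 0.078, or 0.12 after GC adjustment. None was at least 1.5-fold higher and 2 were lower, beside 10.9% and 9.48% of all expressed genes. The 2 not counted as expressed include RAB5C, listed at 0 in both libraries although most cells use it. RAB11A, a small GTPase of the recycling endosome that returns integrins to the surface, was at 5.67 TPM in the POH1 siRNA library and 22.2 TPM in the control library, a 3.92-fold lower value. RAB11B, a paralogue picked with its values known, stood at 180.3 TPM with POH1 siRNA and 169 TPM with control siRNA. VPS35, a retromer subunit, was at 12.5 TPM with POH1 siRNA and 22.1 TPM with control siRNA. CLIP1 (22.7 TPM with POH1 siRNA and 31.5 TPM with control siRNA), ACAP1 (7.96 TPM with POH1 siRNA and 5.40 TPM with control siRNA), RAB5A (9.81 TPM with POH1 siRNA and 6.98 TPM with control siRNA) and DAB2 (11.1 TPM with POH1 siRNA and 8.34 TPM with control siRNA) lay within 1.5-fold.

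All 24 genes of adhesion kinases and scaffolds were expressed, with a median of 0.11, beside 0.12 for all expressed genes. Of these, 3 were at least 1.5-fold higher and 1 lower, beside 10.9% and 9.48% of all expressed genes. After GC adjustment the list median was 0.18, beside 0.15. PTK2B, the kinase PYK2, was at 48.5 TPM in the POH1 siRNA library and 26.5 TPM in the control library, and the paralogous focal adhesion kinase gene PTK2, picked with its values known, at 124 TPM with POH1 siRNA and 107 TPM with control siRNA. GRB2, an adaptor, was at 57.6 TPM with POH1 siRNA and 35.4 TPM with control siRNA and RAPGEF1, an exchange factor for RAP1, at 19.1 TPM with POH1 siRNA and 11.6 TPM with control siRNA. CDC42 was at 57.7 TPM with POH1 siRNA and 88.7 TPM with control siRNA, and RAC1 (259 TPM with POH1 siRNA and 337 TPM with control siRNA) and ARHGEF6 (1.90 TPM with POH1 siRNA and 2.88 TPM with control siRNA) lay within 1.5-fold. After GC adjustment RAB11A (-1.43), PTK2B (0.76), GRB2 (0.69) and RAPGEF1 (0.59) were still beyond 1.5-fold, and VPS35 (-0.41) and CDC42 (-0.27) were not. Conversely, YES1 (0.80), RAB5A (0.80), DAB2 (0.62) and ARF6 (0.59) were at least 1.5-fold higher only after that adjustment. At that setting 13.3% of all expressed genes were higher and 5.74% lower.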
